A study of Solanum lycopersicum with 12 samples.

Results

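In tomato leaves, 71 of 7732 probe sets read higher after NaCl in all 6 array pairs, by at least 0.5 log2 units on average. The leaves were taken 24 h after NaCl or water, and these 71 probe sets, here called members, are described. A member had all 6 differences above 0, a mean difference of at least 0.5 log2 units and, in 1 group or more, a mean level over 3.2 on the log2 scale, and Affymetrix control probe sets were left out. The rule took 0.918 percent of the probe sets that passed the level filter. Its mirror image, with all 6 differences below 0 and a mean of -0.5 or less, took 68 probe sets, or 0.879 percent. With no limit on the mean, 6.43 percent had all 6 differences above 0 and 6.38 percent all 6 below. The salt differences chose the members, so they are given below as a description and not as a result. Of the members, 44 had a usable name and 27 had none.

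The plants were 4-week-old tomato of cultivar Ailsa Craig, and RNA came from the 3rd true leaves. Leaves were sprayed with distilled water or with Alethea, an activator that contains potassium dihydrojasmonate, sodium benzoate and L-arginine, at 99 parts of water to 1 part of Alethea. The pots then received water or 100 mM NaCl at 24 h, and leaves were frozen 48 h after the spray. This gives 4 groups, namely water then water (WW), water then NaCl (WS), Alethea then water (AW) and Alethea then NaCl (AS). The whole experiment was run 3 times, here called occasions 1, 2 and 3, with leaves of 3 plants per array. A pair of arrays is salt against water within 1 pre-treatment and 1 occasion.

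Salt in the soil lowers the water potential around the root and brings sodium into the leaf. Plants answer in part through abscisic acid (ABA), which closes stomata and induces protective proteins, and in part through ethylene, whose receptors repress the pathway until they bind the hormone. Amino acids, sugars and starch are also turned over differently in stressed leaves, and jasmonate drives the wound response, in which protease inhibitors are made.

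Values are GCRMA log2 values, a background-corrected and normalised array signal, so 1 unit is a 2-fold difference. Array medians lay between 7.66 and 7.76. The light-harvesting and photosystem genes CAB4, CAB5, CAB6A and PSBO read 14.46 to 15.31 in all 12 arrays, while the fruit genes PG2, E8 and ACS2 read 1.75 to 2.60. The fourth fruit marker found, Psy1, which makes the first carotenoid precursor, read 7.77 to 11.996 and 8.79 to 11.74 in 2 of its probe sets and 1.498 to 1.647 in the other. The remaining 9 of the 13 leaf markers on the list, and the 4 pollen markers, were not found under their symbols. Spiked-in hybridisation controls (BioB, BioC, BioD and Cre) stood out on occasion 2, with means of 12.23 (WW) and 12.14 (WS) against 10.50 to 11.48 in the other 10 arrays. Without those 2 arrays the rule took 95 probe sets, 63 of which were among the 71 members. In bulk leaf RNA, fewer cells of a type and less RNA per cell cannot be told apart.

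The mean of the 6 differences ran from 0.50 to 1.81 log2 units, with a median of 0.67, and 6 members reached 1 or more. The pairs were uneven, since the SD of the 6 differences of a member ran from 0.15 to 1.03, with a median of 0.41. In 18 members the smallest difference was under 0.1, and in 17 it was over 0.3. The 6 NaCl arrays all read above the 6 water arrays in 1 member, against 0.155 percent of all probe sets kept. Without Alethea, the 3 WS arrays lay above the 3 WW arrays in 14 members, and after Alethea the 3 AS arrays lay above the 3 AW arrays in 8. These 2 counts rest on the values that chose the members. Their share over all probe sets was not counted, so they are a description only. In limma, salt as a main effect called 0 probe sets higher (566 at an unadjusted p under 0.05, smallest adjusted p 0.051) and 3 lower of 7779. By the rule, the 3 called lower could not be members.

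**Figure D1:**
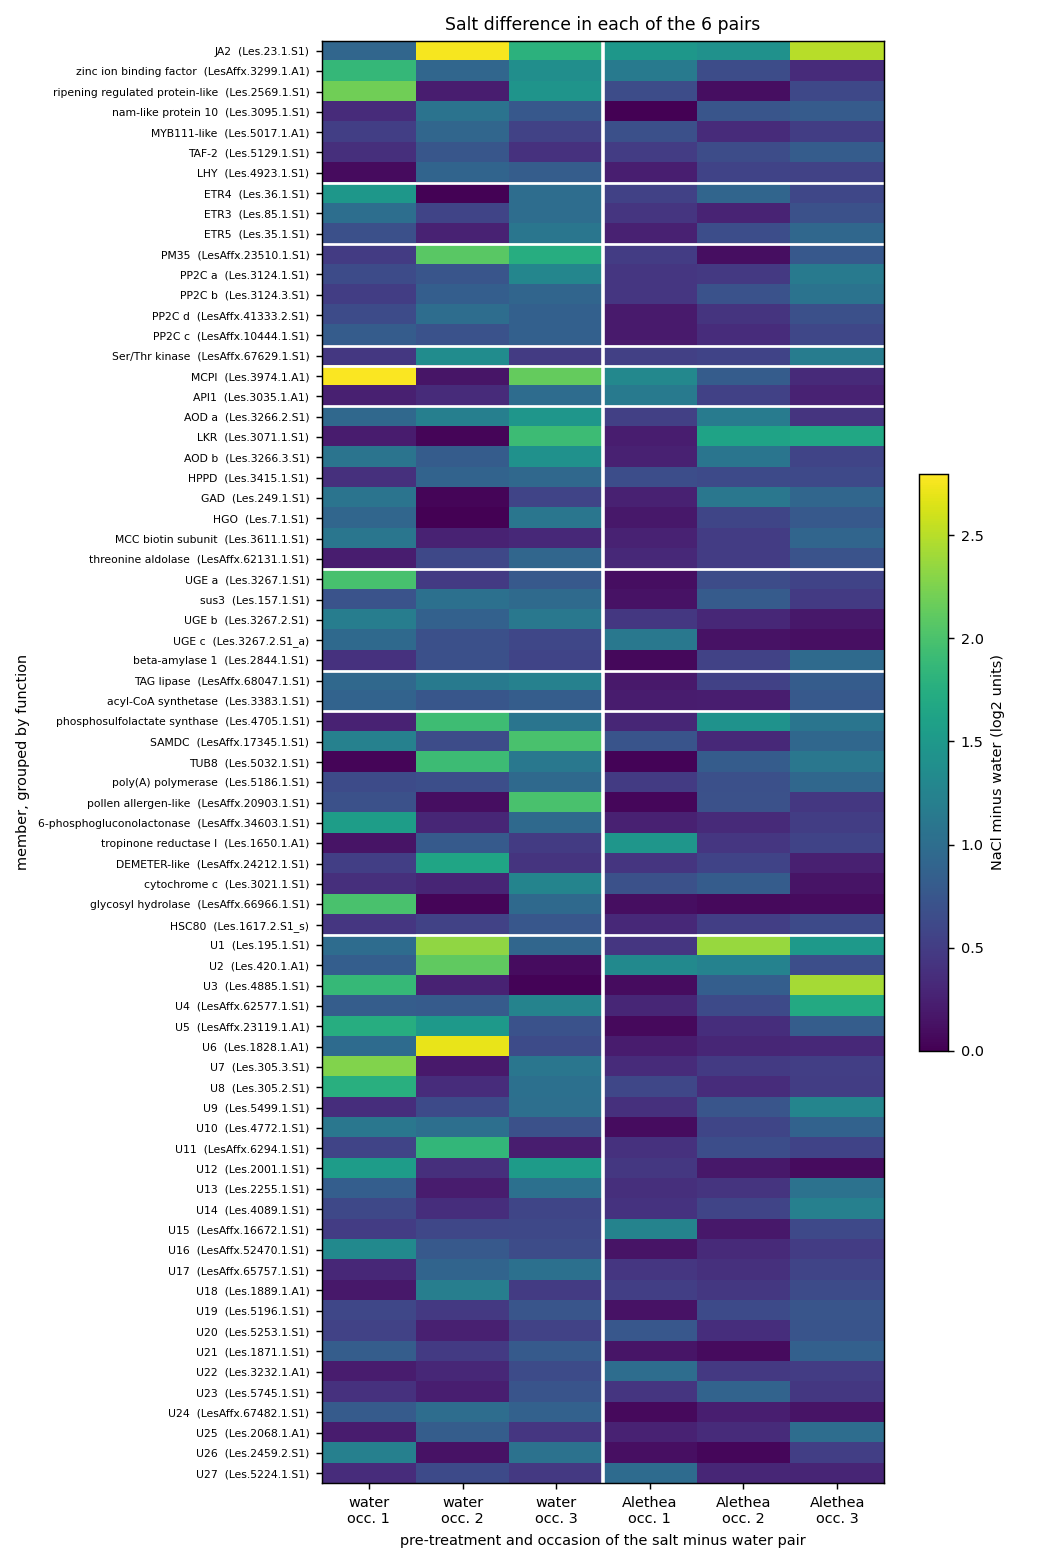
Difference between the NaCl and the water array in log2 units (colour) for the 71 members (rows, grouped by function and ordered by mean, with the probe set ID in brackets and U1 to U27 for members without a usable name) in the 6 pairs (columns, water pre-treatment at left, Alethea at right). JA2 at the top runs from 0.92 to 2.76, while many rows are brighter in the 3 columns at left than in the 3 at right.

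The member with the largest mean difference was a transcription factor. JA2, a tomato NAC factor annotated as jasmonic acid 2, read 5.08, 5.25 and 6.50 in WW leaves and 6.00, 8.01 and 8.30 in WS leaves of occasions 1, 2 and 3. In AW leaves it read 4.72, 7.13 and 5.24, and in AS leaves 6.21, 8.55 and 7.74. Within each occasion the NaCl arrays were the higher ones, although the AW array of occasion 2 read above both occasion 1 NaCl arrays. Its mean difference of 1.81 (SD 0.70, n = 6 pairs), or 3.52-fold, was the largest of the 71, and it was 1.83 without Alethea and 1.80 after it.

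A probe set annotated only as a transcription factor with a zinc ion binding domain had the next largest difference among these factors. It read 4.02, 6.50 and 5.17 in WW, 5.89, 7.42 and 6.56 in WS, 4.55, 6.41 and 5.68 in AW, and 5.70, 7.06 and 6.03 in AS. The mean was 1.05 (SD 0.54), made up of 1.39 without Alethea and 0.71 after it. A ripening regulated protein-like factor, which a second annotation calls a NAC-domain protein, differed by 0.87 (SD 0.80), with 2.19 in the first water pair and 0.10 in the second Alethea pair.

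The other factors differed less but some more evenly. TAF-2, named after a tobacco protein, had differences of 0.38 to 0.81, and the 3 AS arrays (5.70, 5.96 and 6.23) lay above the 3 AW arrays (5.21, 5.31 and 5.42). The MYB111-like probe set, whose Arabidopsis namesake drives flavonol synthesis, had differences of 0.34 to 0.92. The nam-like protein 10, a NAC factor by its petunia match, averaged 0.62 (SD 0.38), with 0.01 in the first Alethea pair. LHY, known in Arabidopsis as a morning factor of the circadian clock, averaged 0.53 (SD 0.32). These 7 factors had a median difference of 0.62, against 0.67 over all members. Of the 7, 6 differed less after Alethea than without it, as did 77.5 percent of all members. A single other NAC gene on the symbol list passed the level filter, NAC1, and its difference was -0.12 with 2 of 6 pairs above 0.

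Ethylene receptors contributed 3 members, ETR3 (symbol LOC544279), ETR4 and ETR5. ETR3 read 5.69, 5.93 and 5.78 in WW and 6.70, 6.50 and 6.78 in WS, so these groups did not overlap. After Alethea it read 5.98, 6.00 and 6.53 without salt and 6.42, 6.28 and 7.23 with it, and these did overlap. The mean difference was 0.67 (SD 0.30), with 0.86 without Alethea and 0.47 after it.

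ETR4 and ETR5 lay near the floor of the array. ETR4 read 3.00, 2.30 and 2.81 in WW, 4.48, 2.32 and 3.82 in WS, 3.22, 2.89 and 4.30 in AW, and 3.77, 3.81 and 4.89 in AS. ETR5 read 2.92, 3.22 and 1.87 in WW, 3.60, 3.49 and 2.97 in WS, 3.23, 3.60 and 2.34 in AW, and 3.49, 4.26 and 3.28 in AS. Their WW means of 2.70 and 2.67 did not reach 3.2, which leaves the size of their differences, 0.76 (SD 0.50) and 0.65 (SD 0.34), uncertain. ETR5 passed the level filter only through its NaCl groups, with means of 3.36 in WS and 3.67 in AS against 3.06 in AW. Its membership thus rests on the groups where it read higher. In the second water pair ETR4 differed by 0.02 alone.

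The rest of the ethylene pathway on the array is given from a list by gene symbol. It had 14 probe sets above the filter, of which 3 were members and 6 read higher in all 6 pairs, against 6.43 percent of all probe sets kept. These counts rest on the salt differences that chose the members, and ETR5 passed the filter only in its NaCl groups. They are a description only, and the list was not tested as a set. None read lower in all 6. The 3 further ones were ETR2, a receptor, at 0.24 (SD 0.10), and EIL3 and EIL1, factors that act at the end of the pathway, at 0.36 (SD 0.27) and 0.29 (SD 0.29). The other EIL factors on the list did not follow, with EIL2 at 0.11 and EIL4 at -0.0016, each with 3 of 6 pairs above 0. The signalling gene EIN2 differed by -0.0035 and ETR1 by 0.16. The median over the 14 was 0.26, and that over all probe sets kept was -0.00016.

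Protein phosphatases 2C made up 4 members from 3 transcript clusters. In Arabidopsis, some phosphatases of this class block ABA signalling until an ABA receptor binds them. The pair here called PP2C a and PP2C b are probe sets of 1 cluster, which a second annotation calls a homologue of ABI2. PP2C b read 8.83, 8.37 and 9.65 in WW, 9.34, 9.20 and 10.56 in WS, 8.25, 8.87 and 8.98 in AW, and 8.69, 9.57 and 10.05 in AS. Its mean difference was 0.75 (SD 0.24), and that of PP2C a was 0.79 (SD 0.36). Both had their largest differences on occasion 3, where all 4 lay between 0.91 and 1.29.

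The other phosphatases, PP2C c and PP2C d, matched tobacco sequences. PP2C c read 9.41, 9.47 and 9.36 in WW, 10.23, 10.17 and 10.21 in WS, 9.30, 9.09 and 8.92 in AW, and 9.51, 9.45 and 9.52 in AS. Its NaCl arrays lay above the water arrays within each pre-treatment, with narrow groups, and the WS arrays lay above all others. The difference was 0.79 without Alethea and 0.39 after it. PP2C d read 6.72, 5.94 and 6.46 in WW, 7.36, 6.94 and 7.32 in WS, 6.76, 5.26 and 5.47 in AW, and 6.97, 5.69 and 6.14 in AS. It differed by 0.83 without Alethea and by 0.44 after it.

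PM35, matched to a soybean seed maturation protein, read 4.95, 4.67 and 3.86 in WW and 5.44, 6.75 and 5.61 in WS. In AW it read 5.09, 4.78 and 4.41, and in AS 5.58, 4.88 and 5.17. The WS arrays lay above the WW and AW arrays but overlapped with the AS arrays, and the difference was 1.44 (SD 0.84) without Alethea and 0.46 (SD 0.33) after it. A list of ABA synthesis and response genes by symbol had 6 probe sets above the filter and no member. Of these, 5 had a mean above 0, but only 1, ZEP at 0.24 (SD 0.096), read higher in all 6 pairs. LEA14 differed by -0.067 with 2 of 6 pairs above 0. ER5 differed by 0.80 (SD 2.34) with 4 of 6, from -0.98 to 5.48. NCED1, which makes the first dedicated precursor of ABA, differed by 0.45 (SD 0.47, 5 of 6 pairs above 0). AREB1, an ABA-response factor, was above 0 in all 6 pairs with a mean of 0.97 (SD 0.59), but its group means of 1.93 to 3.10 kept it out by the level filter.

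Protease inhibitors, which plants make against the enzymes of chewing insects, gave 2 members by the first annotation. A further member, named cytochrome c in the first annotation and proteinase inhibitor I in the second, differed by 0.60 (SD 0.41) and is not counted among them. MCPI, an inhibitor of metallocarboxypeptidases, read 5.25, 10.26 and 9.12 in WW, 8.02, 10.42 and 11.26 in WS, 6.46, 10.55 and 10.24 in AW, and 7.76, 11.37 and 10.57 in AS. Occasion 1 was low in every group, and the 6 differences ran from 0.16 to 2.78 with a mean of 1.25 (SD 1.03). API1, matched to a potato aspartic protease inhibitor, read 10.46 to 13.50 over the 12 arrays and differed by 0.59 (SD 0.39). Of 2 further inhibitors on the symbol list, cathDInh, a cathepsin D inhibitor, differed by 1.14 (SD 1.31) with 4 of 6 pairs above 0. The proteinase inhibitor LOC543954 differed by 0.83 (SD 0.74) with 5 of 6.

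Enzymes of amino acid breakdown and nitrogen use formed the largest named group, with 8 members and a median difference of 0.68. The biotin subunit of methylcrotonyl-CoA carboxylase, of leucine breakdown, read 3.53, 4.24 and 4.34 in WW, 4.63, 4.51 and 4.66 in WS, 4.08, 4.04 and 3.82 in AW, and 4.35, 4.54 and 4.73 in AS. It was the member whose 6 NaCl arrays all lay above its 6 water arrays, by 0.010 log2 units at the closest, and its mean difference was 0.56 (SD 0.36).

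Consecutive enzymes of tyrosine breakdown were members. The first, 4-hydroxyphenylpyruvate dioxygenase (HPPD), which also feeds tocopherol and plastoquinone synthesis, read 8.37, 8.80 and 9.10 in WW, 8.75, 9.70 and 10.04 in WS, 8.37, 9.31 and 9.18 in AW, and 9.03, 9.94 and 9.79 in AS. It was one of the most even members, with differences of 0.39 to 0.94 and a mean of 0.69 (SD 0.20). Homogentisate dioxygenase (HGO), the next step, averaged 0.59 (SD 0.43) with 0.00039 in the second water pair.

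LKR, the bifunctional enzyme of lysine breakdown, was at the other end. It read 2.15, 2.55 and 3.24 in WW, 2.36, 2.58 and 5.16 in WS, 1.83, 2.40 and 2.40 in AW, and 2.05, 4.02 and 4.07 in AS. The mean of 0.95 (SD 0.88) came from 3 pairs above 1.6 and 3 of 0.23 or less. The WW and AW means were 2.64 and 2.21, so LKR passed the level filter only through its NaCl groups (3.37 in WS and 3.38 in AS). LKR differed more after Alethea (1.17) than without it (0.72), as did glutamate decarboxylase (GAD), which makes GABA (0.76 and 0.57).

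Acetylornithine deacetylase, known from bacteria as an enzyme of ornithine synthesis, had 2 probe sets of 1 cluster among the members, at 0.96 (SD 0.41) and 0.87 (SD 0.41). A threonine aldolase, which splits threonine, differed by 0.55 (SD 0.26). The symbol list for these pathways had 12 probe sets above the filter, of which 2 were members and 9 had a mean above 0. The exception in size was PDH, proline dehydrogenase, which degrades the osmolyte proline. It was lower in 6 of 6 pairs, by 2.65 on average (SD 0.76), and it was 1 of the 3 probe sets (0.0386 percent) that limma called lower under salt (change -2.65, SE 0.25, adjusted p = 0.0093).

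**Figure D2:**
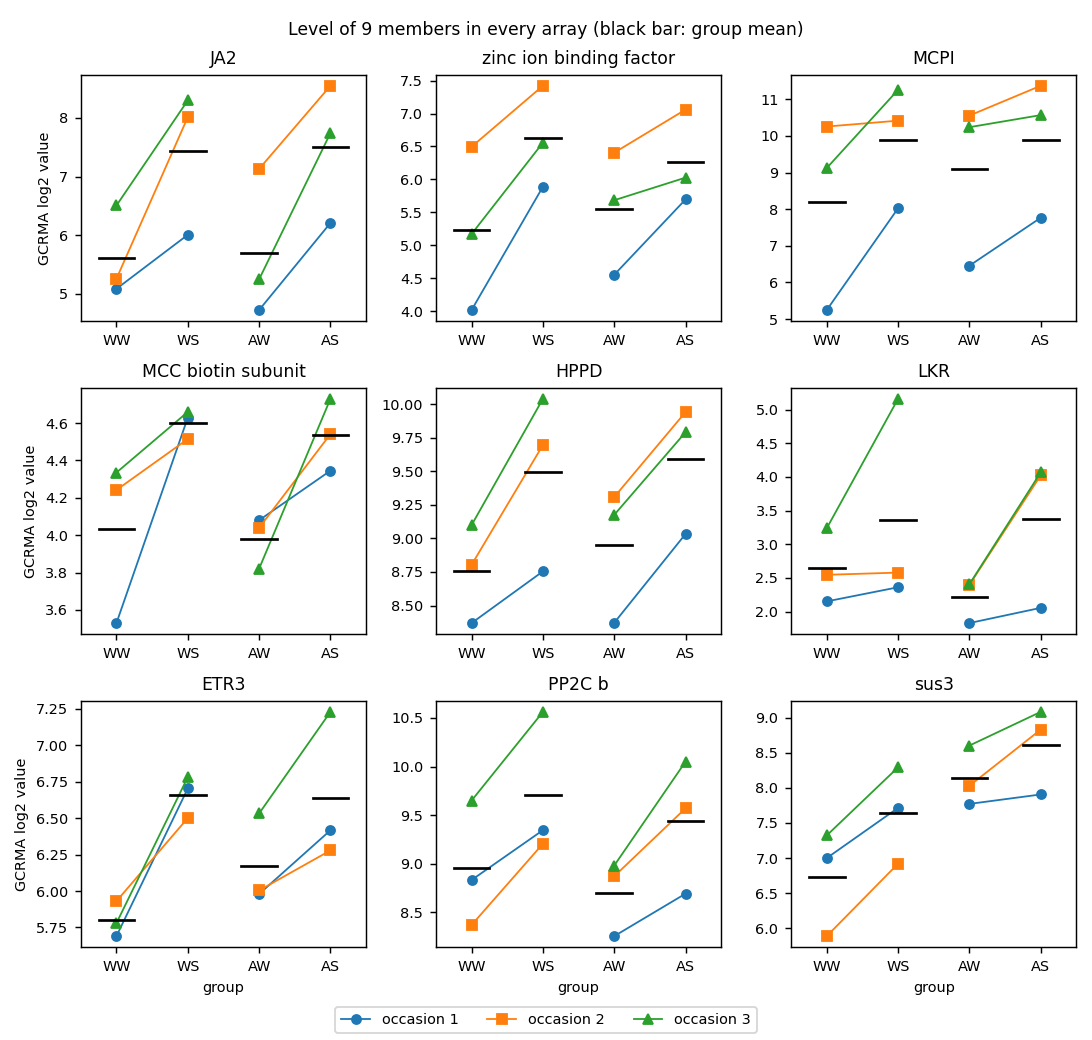
GCRMA log2 value (vertical axes, each with its own range) of 9 members in the 4 groups. Points are arrays, lines join the water and NaCl arrays of 1 occasion, and black bars are means of 3 arrays. Every line slopes upward, as the rule requires, while the height of the lines differs by occasion, as in MCPI, where occasion 1 lies at 5.25 to 8.02.

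Sugar and starch enzymes gave 5 members, of which 3 belong to a single cluster of UDP-glucose 4-epimerase, the enzyme that interconverts UDP-glucose and UDP-galactose. Their differences were 0.76 (SD 0.64), 0.69 (SD 0.43) and 0.60 (SD 0.41), and the other probe set of that cluster averaged 0.61 with 5 of 6 pairs above 0. The sucrose synthase gene sus3, whose enzyme cleaves sucrose, read 7.00, 5.89 and 7.32 in WW, 7.71, 6.92 and 8.29 in WS, 7.77, 8.03 and 8.60 in AW, and 7.91, 8.83 and 9.08 in AS. The lowest Alethea array thus read above all WW arrays and above 2 of 3 WS arrays. Its salt difference was 0.91 (SD 0.17) without Alethea and 0.47 (SD 0.33) after it. Beta-amylase 1, which releases maltose from starch, differed by 0.54 (SD 0.30).

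On the symbol list for sugars and starch, 18 probe sets passed the filter, of which 4 read higher and 2 lower in all 6 pairs, and the median was 0.052. Sucrose-phosphate synthase (SPS), of sucrose synthesis, differed by 0.45 (SD 0.16) in 6 of 6 pairs. The cell wall invertase Wiv-1 and the hexose transporter HT1 differed by -0.59 (SD 0.49) and -0.45 (SD 0.30), below 0 in 6 of 6.

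Among the remaining named members were 2 lipid enzymes, a triacylglycerol lipase at 0.81 (SD 0.39) and an acyl-CoA synthetase at 0.61 (SD 0.31). A Ser/Thr kinase, which a second annotation calls a CBL-interacting kinase, differed by 0.76 (SD 0.40), with 0.77 without Alethea and 0.76 after it. A probe set named S-adenosylmethionine decarboxylase, of polyamine synthesis, differed by 0.98 (SD 0.58), but a second annotation calls it a dnaJ chaperone, so the identity is unsettled. A phosphosulfolactate synthase-related probe set differed by 1.02 (SD 0.65) and the beta-tubulin TUB8 by 0.84 (SD 0.72), with 0.04 and 0.03 in its occasion 1 pairs. The most even of all members were HSC80, a heat shock cognate of the Hsp90 family (0.54, SD 0.15), TAF-2 (0.58, SD 0.18) and a poly(A) polymerase, which adds tails to mRNA (0.73, SD 0.18). Poly(A) polymerase differed by 0.48 to 0.96, a ratio of 1.98 between its largest and smallest pair.

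The 27 members without a usable name had a median difference of 0.63. They are numbered U1 to U27 by the size of their mean. U1 had the second largest difference of all members, 1.43 (SD 0.79), with 2.34 and 2.37 in the pairs of occasion 2. A second annotation calls U7 and U8, of 1 cluster, AGO4-1, a name of proteins that bind small RNAs, and they differed by 0.82 (SD 0.78) and 0.77 (SD 0.55). Just inside the threshold of 0.5 were U27, U26 and U25 at 0.504, 0.514 and 0.518. Just outside were LOC544001, GBF4, a factor that binds G-box DNA, and an unannotated probe set at 0.496, 0.490 and 0.490, all above 0 in the 6 pairs.

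Probes for the same transcript cluster did not always follow. The members came from 66 clusters, 16 of which had more than 1 probe set, and 19 of these were not members. Of the 14 that passed the level filter, 13 had a mean difference above 0, 5 in all 6 pairs and 5 in 5 of 6. Both other probe sets of HSC80 differed by 0.48 and 0.46 in 6 of 6 pairs. By contrast, another probe set of the HPPD cluster differed by -0.065, with 1 of 6 above 0, and a second one of the MYB111-like cluster by 0.20, with 4 of 6.

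Without Alethea the median salt difference of the members was 0.80 log2 units, and after Alethea it was 0.54. It was smaller after Alethea in 55 members, or 77.5 percent, and larger in 16, and in 20 members it was less than 50 percent of the difference without Alethea. For comparison, 72.4 percent of the 497 probe sets with all 6 differences above 0 had the smaller one after Alethea. Of the 68 lowered probe sets, 44.1 percent did. The member medians in occasions 1, 2 and 3 were 0.71, 0.68 and 0.93 without Alethea and 0.39, 0.54 and 0.64 after it, so the order was the same on each occasion. The first Alethea pair held the smallest of the 6 differences in 26 members.

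The widest gap was that of the unnamed U6, which differed by 1.44 without Alethea and by 0.28 after it. PM35 followed with 1.44 and 0.46, and the unnamed U12 with 1.15 and 0.24. A glycosyl hydrolase came next with 0.99 and 0.084, but it read 4.33 and 6.32 in the WW and WS arrays of occasion 1 and 1.76 to 2.75 in those of occasions 2 and 3. JA2, the Ser/Thr kinase, PP2C b and the methylcrotonyl-CoA carboxylase subunit differed by nearly the same in both pre-treatments. The 5 sugar and starch enzymes, the 5 members of the phosphatase and ABA group and the 3 ethylene receptors all had the smaller mean after Alethea. So did 77.5 percent of all members, and some of these probe sets share a cluster, so this does not set the groups apart. Whether the salt difference itself differed between the pre-treatments was not tested, since its values were those that chose the members.

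**Figure D3:**
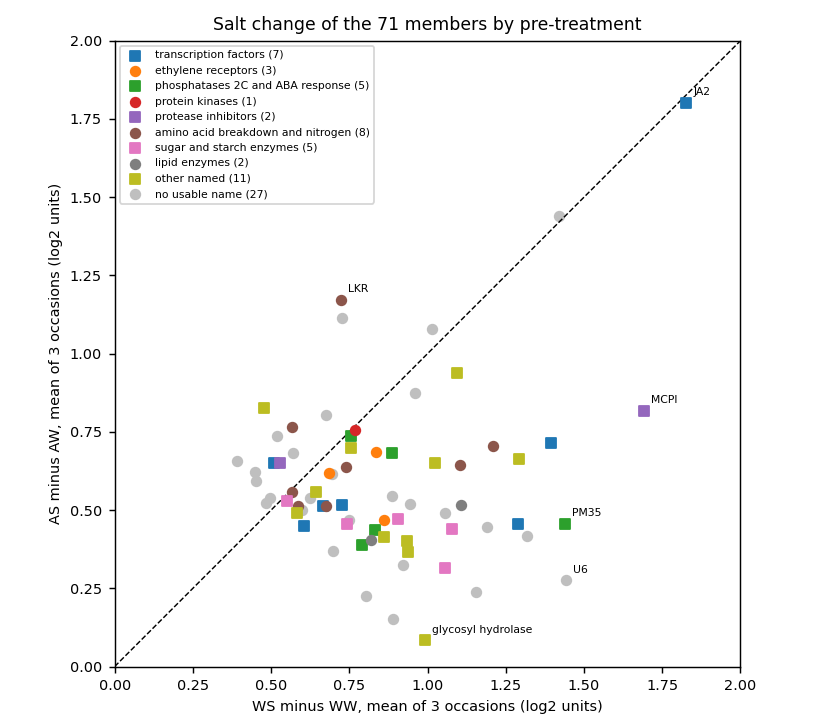
Mean salt change after Alethea (vertical axis, AS minus AW, log2 units) against that without Alethea (horizontal axis, WS minus WW, log2 units) for the 71 members, coloured by function. The dashed line marks equal change, and 55 points lie below it, with PM35, U6 and the glycosyl hydrolase far below and LKR above.

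The change with Alethea over both salt conditions does not use the differences that chose the members, and it was tested with limma with occasion as a block. Its SE is not free of the rule, since the residual spread of that fit comes in part from how the 6 salt differences of a probe set vary. The members' p-values and the share of them called are therefore not independent of the choice. A fit on the means per pre-treatment and occasion, in which the salt differences cancel, called 0 probe sets, and the 8 members named below had adjusted p-values of 0.228 to 0.236 in it. Of all 7779 probe sets kept, 8.18 percent were called at an adjusted p under 0.05, 3.57 percent higher and 4.6 percent lower after Alethea. Among the 71 members 8 were called, or 11.3 percent, 3 higher and 5 lower. At an unadjusted p under 0.05 there were 26 members, or 36.6 percent, against 31.9 percent of all. The median change over the members was -0.021 log2 units and over all kept -0.0035, and 34 members were above 0 and 37 below. Rank Product, which the study used on pair-wise comparisons, was run here on the 6 Alethea against water pairs together. It took these pairs as separate replicates, although they come from 3 occasions. It called 2.55 percent of all probe sets higher and 2.22 percent lower after Alethea, with 8 members higher and 5 lower. Both methods called 2 members higher, sus3 and U6, and 2 lower, PP2C d and U5. The other 4 of limma's calls, MYB111-like, PP2C c, HSC80 and U16, were not made by Rank Product, with false discovery rates of 0.101, 0.146, 0.448 and 0.105.

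The members called higher were sus3, the MYB111-like probe set and the unnamed U6. The sucrose synthase sus3 rose by 1.18 log2 units (SE 0.24, adjusted p = 0.033), higher in 6 of 6 Alethea against water pairs, and by 0.48, 2.02 and 1.03 in occasions 1, 2 and 3. MYB111-like read 9.20, 10.07 and 10.98 in WW, 9.73, 11.00 and 11.53 in WS, 9.52, 11.08 and 11.55 in AW, and 10.21, 11.42 and 12.06 in AS. Its change of 0.55 (SE 0.090, adjusted p = 0.028) was above 0 in 6 of 6 pairs and smaller than the spread between occasions. U6 read 2.91 to 6.84 in the water pre-treatment and 5.96 to 8.18 after Alethea, a change of 1.54 (SE 0.31, adjusted p = 0.034).

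Both tobacco-matched phosphatases 2C were among the 5 called lower. PP2C c fell by 0.51 (SE 0.074, adjusted p = 0.023) in 6 of 6 pairs, and by 0.42, 0.55 and 0.56 in the 3 occasions. PP2C d fell by 0.74 (SE 0.16, adjusted p = 0.037) in 5 of 6 pairs, and by 0.18, 0.96 and 1.09. The other 2 phosphatase probe sets and PM35 had changes of -0.34 (SE 0.17), -0.26 (SE 0.19) and -0.23 (SE 0.24), which did not pass. HSC80 read 11.39, 11.90 and 11.66 in WW, 11.83, 12.46 and 12.41 in WS, 11.12, 11.56 and 11.44 in AW, and 11.44, 12.07 and 12.07 in AS. It fell by 0.33 (SE 0.073, adjusted p = 0.040) in 6 of 6 pairs. The last were U5 and U16, both matched to unknown Arabidopsis proteins, at -1.27 (SE 0.21, adjusted p = 0.028) and -0.60 (SE 0.12, adjusted p = 0.033).

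In limma, none of these 8 calls was made without the occasion as a block, without occasion 2, without occasion 3, with means per pre-treatment and occasion, or without the WW and WS arrays of occasion 2. The signs stayed the same in all of these settings. In the actin control, the 3' probe set minus the 5' one, a measure of RNA or labelling quality, was higher after Alethea in 6 of 6 pairs, by 0.65 log2 units (SD 0.41), and that of GAPDH by 0.16 (SD 0.091) in 6 of 6. Their part in the result was not tested. Under salt the same measures differed by 0.056 (SD 0.37) and 0.040 (SD 0.085), with 2 and 3 of 6 pairs above 0.

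**Figure D4:**
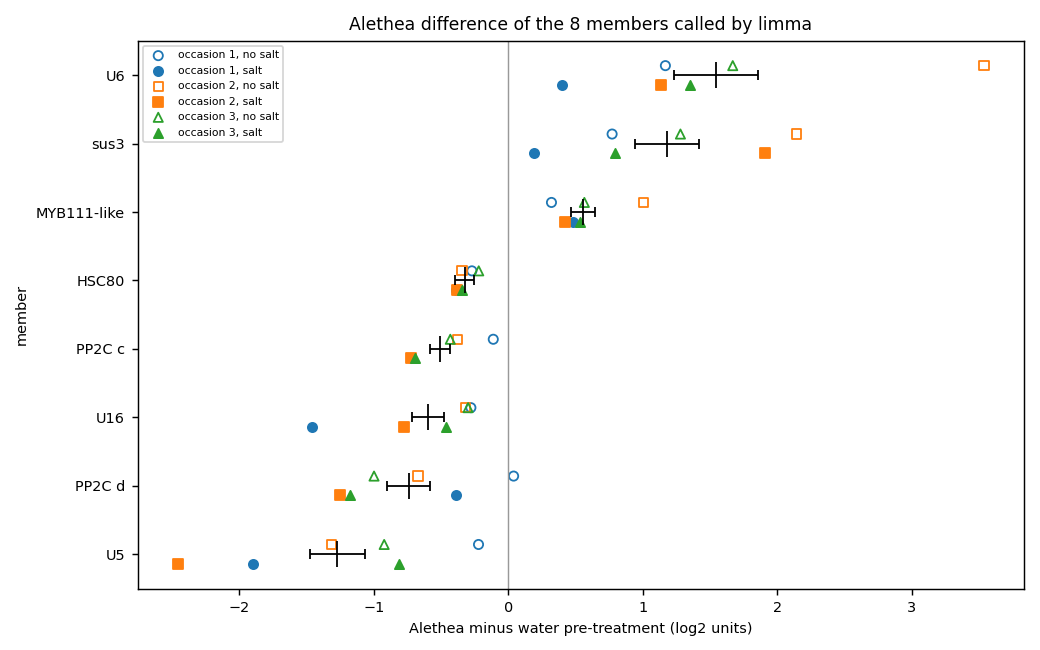
Alethea minus water pre-treatment in log2 units (horizontal axis) for the 8 members called by limma. Points are the 6 pairs (shape and colour give the occasion, open without salt and filled with salt), and bars are the limma change with its SE. The pairs of sus3 range widely, while those of HSC80 lie close together and all below 0.

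Taken separately, AW minus WW and AS minus WS share arrays with the salt differences that chose the members, so they are given as values. In limma, 0 probe sets were called in AW minus WW (529 higher and 457 lower at an unadjusted p under 0.05), and 0 in AS minus WS (867 higher and 956 lower). The median over the members was 0.074 without salt and -0.099 under salt. PP2C c changed by -0.31 and -0.71, sus3 by 1.40 and 0.96, and LHY by 0.78 and 0.63. LHY, DEMETER-like, named for an Arabidopsis DNA demethylase, and the ethylene receptor ETR4 had main effects of 0.71, 0.74 and 0.69, with adjusted p-values of 0.054, 0.064 and 0.13 in limma.

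The level of the members also differed between occasions, a comparison that was not itself part of the rule. The rule did use levels and a minimum size of difference, so the shares below may not be independent of it. They were not tested. Averaged over the 4 groups, occasion 1 read below the mean of occasions 2 and 3 in 51 members, or 71.8 percent, against 49.3 percent of all probe sets kept. It was lower by more than 1 log2 unit in 29.6 percent of the members and in 7.77 percent of all. It was higher by more than 1 unit in 11.3 percent of the members and in 7.40 percent of all. The tropinone reductase I probe set, of the alkaloid pathway in other Solanaceae, averaged 5.14 in occasion 1, 9.33 in occasion 2 and 9.00 in occasion 3. The clock factor LHY averaged 7.64, 11.24 and 11.47, the acyl-CoA synthetase 6.88, 10.65 and 10.68, and MCPI 6.87, 10.65 and 10.30. In the opposite direction, GAD averaged 8.01, 5.80 and 6.02, and the phosphosulfolactate synthase-related probe set 7.00, 4.63 and 4.01. The members' level in WW leaves had a median of 7.20 and ran from 2.10 to 11.77. That median was 8.76 for all probe sets kept and 8.25 for the 68 lowered probe sets. WW values entered the differences that chose the members, so the level in WW leaves is not independent of the rule.

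**Figure D5:**
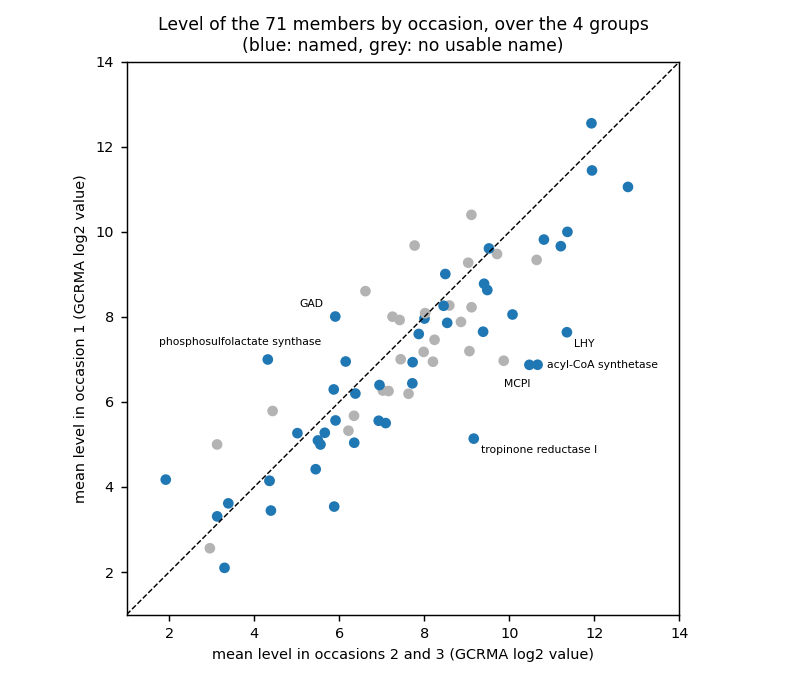
Mean GCRMA log2 value of each of the 71 members over the 4 groups, in occasion 1 (vertical axis) against the mean of occasions 2 and 3 (horizontal axis), with named members in blue and the others in grey. The dashed line marks equal level, and 51 points lie below it, with LHY, the acyl-CoA synthetase, MCPI and tropinone reductase I farthest down.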

How the data were processed

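The authors hybridised leaf RNA to the Affymetrix Tomato Genome Array and deposited GCRMA log2 values of 10209 probe sets, with the version of GCRMA not stated. All 12 columns were matched to samples by their labels. Probe sets with a group mean above 3.2 were kept (7779, or 7732 without control probe sets). Salt differences were taken within pre-treatment and occasion. For Alethea, limma 3.58.1 (R 4.3.3) was run on these values, with a mean for each group, a block for occasion and 6 residual degrees of freedom, and p-values were adjusted by the Benjamini-Hochberg method over 7779. Occasions are separate experiments by the study's methods. Deviations from group means had an r of 0.44 to 0.87 between the 18 pairs of arrays of 1 occasion. Between the 48 pairs of arrays of different occasions r was -0.88 to 0.63, so the ranges overlap. Deviations from a mean of 3 arrays sum to 0, so these ranges do not measure pairing alone. Rank Product was written in Python 3.11.15 and run with 1000 permutations. The scripts were tested on simulated data. The number of arrays limits the precision.

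The 71 members and all lists were chosen with earlier results of these data known, so no list was tested as a set. Named genes were the 12 named members with the largest mean, up to 5 of each functional list, those called for Alethea, and the 3 probe sets on each side of the threshold. Others were named after their values were seen, namely those described as most even, as differing between occasions, or as further genes of a pathway. Names came from the array's symbols, updated through RefSeq, or from the study's annotation, mostly as matches in other species. Probe sequences were not used here.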

Additional observations from a re-analysis of the deposited data

How the results depend on the processing

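The rule took 116 probe sets with a mean of at least 0.4 and 29 with 0.7, and 84 to 178 without 1 occasion, of which 53 to 65 were among the 71 members. With a mean of at least 0.7 the median salt change was 1.08 without Alethea and 0.69 after it. For the Alethea effect, 278 probe sets were called higher and 358 lower. Leaving out an occasion gave 0 to 256 and 0 to 198, with 0 to 6 and 0 to 4 members, where the 2 fits without occasion 2 or 3 called 0 (558 and 733 higher, 796 and 710 lower at an unadjusted p under 0.05). Without the occasion as a block limma called 0 and 0 (497 higher and 427 lower at an unadjusted p under 0.05), and 0 members. With means per pre-treatment and occasion it called 0 and 0 (698 and 808), and without the WW and WS arrays of occasion 2, an alternative added after seeing the data, 0 and 0 (699 and 912), with 0 members in both. A mean-dependent prior gave 422 higher, with 5 members. No level filter gave 236 lower, and a filter of 5 gave 5 members higher. Rank Product gave 173 lower and, among the members, 8 higher (ETR4, LHY, DEMETER-like and sus3 among them) and 5 lower. The phosphatase PP2C d was not called without a level filter (adjusted p = 0.051), nor HSC80 without occasion 1 (0.077). The cause was not tested. No change of the 8 called members reversed, and the other alternatives kept each count within 1.5 times. Members below 3.2 in WW leaves (5 of 71) are the least certain in size. Among them, ETR5, LKR, U3 and the glycosyl hydrolase passed the level filter only in NaCl groups. The glycosyl hydrolase did so only in WS, with a mean of 3.62 and 1 array at 6.32.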
